A study of Mus musculus with 6 samples.

Results

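The genes described are 10 enzymes of glycolysis, *Hk1*, *Gpi1*, *Pfkp*, *Aldoa*, *Tpi1*, *Gapdh*, *Pgk1*, *Pgam1*, *Pkm* and *Ldha*, found by symbol among the 50508 symbols listed for each library. All 10 were listed and all 10 were above 0 in every library. They were measured in primary mouse neurons transduced with a lentivirus carrying either Ctrl-dCas9A, with a guide against LacZ (sgLacZ, 3 libraries), or Kcna1-dCas9A, with the guide sg19 against the *Kcna1* promoter (sgKcna1, 3 libraries). Cells of both groups express dCas9-VP160, a nuclease-dead Cas9 fused to a transcriptional activator, under the Ef1alpha promoter, which is not restricted to neurons, and the groups differ in the guide. According to the methods the neurons came from newborn C57Bl/6J pups and were transduced at 1 day in vitro (DIV). The RNA was taken at 10 DIV by the sequencing methods, whereas the culture methods give a later time. The methods call them cortical, whereas the sample labels name hippocampus. Nothing in the labels says whether the 3 libraries of a group came from separate cultures, so p-values measure the spread between these samples, which may be technical. The question was whether expression of these enzymes differed between neurons in which *Kcna1*, a potassium channel gene, was activated and control neurons.

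Glycolysis converts a molecule of glucose in the cytosol to a pair of pyruvates, and lactate dehydrogenase turns pyruvate to lactate. The early enzymes, from hexokinase to triose phosphate isomerase, spend ATP and split the sugar into triose phosphates. The later ones, from glyceraldehyde-3-phosphate dehydrogenase to pyruvate kinase, regenerate ATP and NADH. In brain, astrocytes and neurons both run the pathway but use some isozymes, enzymes of the same step encoded by different genes, in different proportions. *Gapdh* is also in wide use as a reference gene for expression assays.

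Values are whole numbers that sum to between 999047 and 999717 in each library, so they were read as per-million values rounded by the authors, and read depth is unknown. A value below is such a rounded number. The libraries were prepared with a 3' kit, in which a transcript gives reads mainly at its end, and values were not divided by gene length. The targeted gene *Kcna1* had values of 16, 16 and 16 in Ctrl-dCas9A, against 68, 47 and 65 in Kcna1-dCas9A, higher in every library labelled sgKcna1. Over the 19504 genes above 0 in at least 1 library, limma on log2(value + 1) called 226 (1.16%) at a Benjamini-Hochberg adjusted p under 0.05, with 68 higher and 158 lower in Kcna1-dCas9A. With values rescaled by the median of ratios, 962 were higher and 757 lower, so the balance of directions over all genes depends on the scaling. The third Ctrl-dCas9A library stood apart from the other 2 in its effect on the test: without it, 2711 of 19122 genes (14.2%) passed, whereas leaving out any other single library left 0 genes past the threshold (3332 to 3853 at an unadjusted p under 0.05). In bulk RNA, fewer cells of a type cannot be told apart from less RNA per cell.

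Sequence identity bears on the values of some of these genes, because a read that matches several places in the genome may not be assigned to any. Every window of 75 bases, the read length, in the last 400 bases of each transcript was searched in the mouse genome (NCBIM37). For *Gapdh*, 326 of 326 windows (100%) occurred exactly at other places, where 39 near-identical copies were found. For *Pgk1* (4 copies) 97.5% of windows occurred elsewhere, and for *Pgam1* (4 copies) 98.8% did. For *Gpi1* (1 copy) 25.5% did, and for *Tpi1* (1 copy) 16.6%. *Hk1* had 1 similar copy but no window with an exact match, and *Pfkp*, *Aldoa*, *Pkm* and *Ldha* had 0 copies. A stretch of coding sequence from *Gapdh* and a stretch from *Aldoa* show both ends of this range. The *Gapdh* stretch (chr6:125112287-125112361, minus strand) had 28 exact copies elsewhere, and the *Aldoa* stretch (chr7:133938933-133939007, minus strand) had 0.
Gapdh: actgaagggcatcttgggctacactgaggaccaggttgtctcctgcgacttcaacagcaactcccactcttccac
Aldoa: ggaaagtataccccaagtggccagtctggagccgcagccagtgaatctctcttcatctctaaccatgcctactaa

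The members with most of their windows repeated elsewhere were the lowest of the 10, with means over the 6 libraries of 9.5 for *Gapdh*, 3.83 for *Pgam1* and 1.33 for *Pgk1*. The other 7 lay between 28.5 for *Tpi1* and 157 for *Hk1*. Outside the 10 genes, *Eno1*, which encodes the widely expressed enolase, had 74.8% of windows repeated and a mean of 2.33. The reference gene *Ppia* had 99.4% repeated, 23 copies and a mean of 9.17. Among these enzymes, their isozymes and 12 reference genes, the 5 genes with over 70% of windows repeated had means from 1.33 to 9.5. The 35 genes with 50% or fewer had means from 0 to 9252 (median 22), with 5 of them at 0. Those 5 were the isozyme genes *Hk3*, *Gapdhs*, *Pgk2*, *Pklr* and *Ldhc*, and a gene that is not expressed would be at 0 with or without repeats. The cut at 70% was chosen after the values were seen. Of the symbols listed, 28 were numbered predicted genes (Gm) that overlap *Gapdh* copies by position, and whether they derive from *Gapdh* was not checked. Of these 28, 25 were at 0 in all libraries, and the remainder summed to a value of at most 3 in any library. Levels of *Gapdh*, *Pgk1* and *Pgam1* are therefore uncertain, and whether the repeats account for their low values was not tested.

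**Figure D1:**
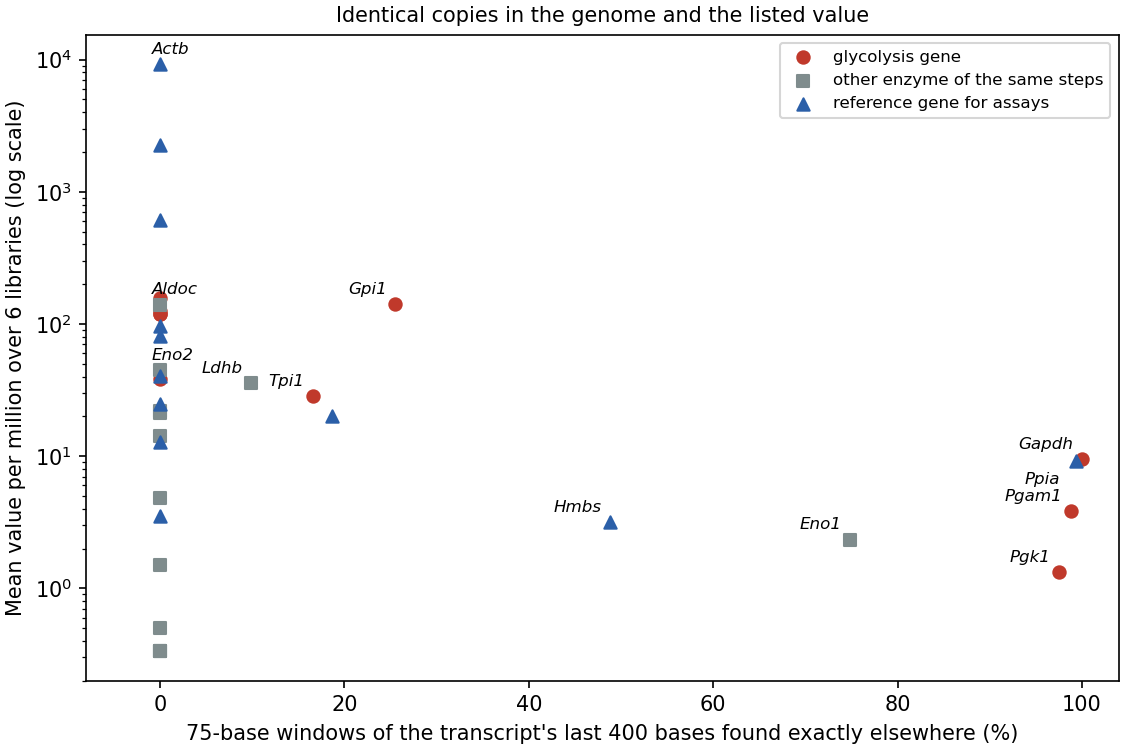
Mean value (per-million, rounded) over the 6 libraries (vertical axis, log scale) against the percentage of 75-base windows of the transcript end that occur exactly elsewhere in the genome (horizontal axis), for the glycolysis genes (red circles), other enzymes of the same steps (grey squares) and reference genes (blue triangles). *Gapdh*, *Pgam1*, *Pgk1*, *Eno1* and *Ppia*, at the right, lie at or under 9.5, and 5 unrepeated genes at 0 cannot be drawn on the log scale.

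None of the 10 genes passed an adjusted p of 0.05 (limma, adjusted over all 19504 genes), against 1.16% of all genes (0.349% higher and 0.81% lower). The nearest were *Gpi1*, which was higher in Kcna1-dCas9A (adjusted p = 0.0556), and *Gapdh*, which was lower (adjusted p = 0.0647). At an unadjusted p under 0.05 there were 4, *Hk1*, *Gpi1* and *Pfkp* higher (9.59% of all genes) and *Gapdh* lower (13.6%). The groups did not overlap for 4 of the 10, with *Gpi1*, *Pfkp* and *Pkm* higher (8.98% of all genes) and *Gapdh* lower (13.3%). The log2 fold change was above 0 for 7 of the 10, with a median of 0.19, beside -0.02 over all genes tested.

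**Figure D2:**
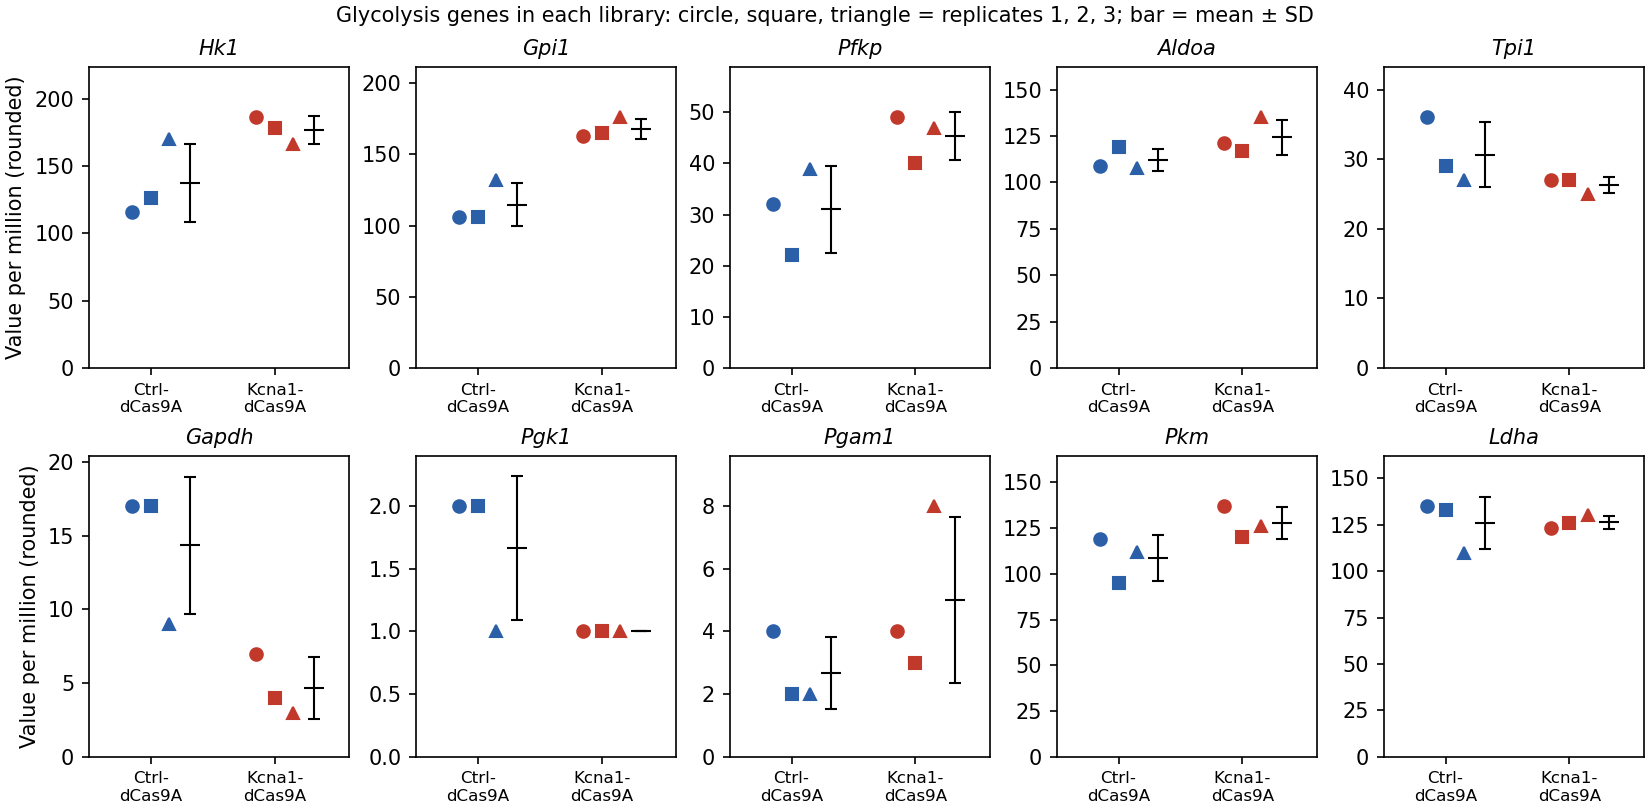
Value (per-million, rounded, vertical axes from 0) of each of the 10 genes in each library; circles, squares and triangles are replicates 1, 2 and 3 of Ctrl-dCas9A (blue) and Kcna1-dCas9A (red), and the black bar is the mean with the SD (n = 3). *Gpi1*, *Pfkp* and *Pkm* are higher in all 3 Kcna1-dCas9A libraries than in any Ctrl-dCas9A library, and *Gapdh* is lower in all 3.

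*Hk1* encodes the main hexokinase of brain, which phosphorylates glucose and so traps it in the cell (chromosome 10, 62268855 to 62379920, GRCm38.p6). Its values were 116, 126 and 170 in Ctrl-dCas9A, against 186, 178 and 166 in Kcna1-dCas9A. The third Ctrl-dCas9A library was inside the range of the other group, so the groups overlapped. Means were 137 ± 28.7 and 177 ± 10.1 (SD, n = 3), giving a log2 fold change of 0.38 (SE 0.15, 95% interval 0.02 to 0.74) that did not pass (limma adjusted p = 0.188). Without the third Ctrl-dCas9A library it was 0.54 (limma adjusted p = 0.027).

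*Gpi1* encodes glucose-6-phosphate isomerase, which converts glucose 6-phosphate to fructose 6-phosphate (chromosome 7, 34201327 to 34230336). Its values were 106, 106 and 132 in Ctrl-dCas9A, against 163, 165 and 176 in Kcna1-dCas9A. All 3 Kcna1-dCas9A libraries were above all controls. Means were 115 ± 15 and 168 ± 7 (SD, n = 3), a ratio of 1.47 and a log2 fold change of 0.55 (SE 0.11, 95% interval 0.29 to 0.82, limma adjusted p = 0.0556). It passed the threshold in 7 of 16 alternative settings, among them the fit without the third Ctrl-dCas9A library (0.66, limma adjusted p = 0.018). In those 7 settings the share of all genes that passed was also far above 1.16%, for instance 8.81% after rescaling by the median of ratios and 28.4% among genes with a mean of at least 10. A near-identical copy of its transcript end covers 96.6% of the windows, so part of its reads may have been lost or shared, which was not tested.

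*Gpi1* was the member nearest to the threshold, and its promoter is therefore shown. The 100 bases before its transcription start (RefSeq, GRCm38.p6, chr7:34230337-34230436, minus strand) hold 2 copies of GGGCGG, the core of the GC box bound by Sp1, in capitals.
Gpi1: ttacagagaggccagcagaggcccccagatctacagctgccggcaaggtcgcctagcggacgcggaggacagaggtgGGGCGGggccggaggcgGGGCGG

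*Pfkp* encodes the platelet-type phosphofructokinase, an isoform of the enzyme that commits fructose 6-phosphate to glycolysis and is a main control point of the pathway (chromosome 13, 6579874 to 6649060). Its values were 32, 22 and 39 in Ctrl-dCas9A, against 49, 40 and 47 in Kcna1-dCas9A. The groups did not overlap, but the gap between the highest control and the lowest Kcna1-dCas9A library was 1, the size of the rounding step. Means were 31 ± 8.54 and 45.3 ± 4.73 (SD, n = 3), giving a log2 fold change of 0.57 (SE 0.21, 95% interval 0.06 to 1.07) that did not pass (limma adjusted p = 0.167). It passed in 3 of 16 alternative settings, those with upper-quartile rescaling, a mean of at least 10 or robust variance. Of all genes, 28.4% passed with a mean of at least 10 and 14.8% with robust variance. Without the second Ctrl-dCas9A library, the lowest control, the log2 fold change of *Pfkp* was 0.35.

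*Aldoa* encodes aldolase A, which splits fructose 1,6-bisphosphate into triose phosphates (chromosome 7, 126795234 to 126800994). Its values were 109, 119 and 108 in Ctrl-dCas9A, against 121, 117 and 135 in Kcna1-dCas9A, with overlapping groups. The log2 fold change was 0.15 (SE 0.10, 95% interval -0.08 to 0.38, limma adjusted p = 0.421), and 0.09 without the third Kcna1-dCas9A library. *Tpi1*, triose phosphate isomerase, which interconverts the triose phosphates (chromosome 6, 124810586 to 124814158), had values of 36, 29 and 27 in the controls and 27, 27 and 25 with Kcna1-dCas9A. It was the only member of the early steps with a log2 fold change below 0 (-0.20, SE 0.14, 95% interval -0.54 to 0.14, limma adjusted p = 0.458), its groups overlapped, and without the first Ctrl-dCas9A library the value was -0.09.

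*Gapdh* oxidizes glyceraldehyde 3-phosphate and makes NADH (chromosome 6, 125161852 to 125166467). Its values were 17, 17 and 9 in Ctrl-dCas9A, against 7, 4 and 3 in Kcna1-dCas9A. The groups did not overlap, although on the values before the log2 step the third control was nearer to the Kcna1-dCas9A libraries than to the other controls. Means were 14.3 ± 4.62 and 4.67 ± 2.08 (SD, n = 3), a ratio of 0.326 and a log2 fold change of -1.45 (SE 0.35, 95% interval -2.27 to -0.62, limma adjusted p = 0.0647). Without the third Ctrl-dCas9A library it was -1.73 (limma adjusted p = 0.039), beside 14.2% of all genes past the threshold. *Gapdh* passed in 6 of the 15 alternative settings in which it was tested, where more than 1.16% of all genes passed as well. At such low values a rounding step is a sizeable part of the measurement, and all of its windows are repeated elsewhere in the genome, so the difference cannot be assigned to the *Gapdh* locus. *Ppia*, the reference gene with nearly all of its windows repeated (chosen after its values were seen), had values of 14, 9 and 11 in Ctrl-dCas9A, against 8, 6 and 7 in Kcna1-dCas9A (log2 fold change -0.61, limma adjusted p = 0.148). *Actb*, a reference gene with 0 copies by the same search, had values of 8238, 8194 and 8022 in Ctrl-dCas9A, against 10313, 9093 and 11652 in Kcna1-dCas9A (log2 fold change 0.34, limma adjusted p = 0.151). Of the 12 reference genes, 10 had log2 fold changes below 0. Among them were *Tfrc* (-0.67, without overlap, limma adjusted p = 0.0583), *Hprt* (-0.52, without overlap) and *B2m* (-0.60), with 0 copies and chosen after their values were seen. *Pgam1*, with 98.8% of windows repeated and values from 2 to 8, had a log2 fold change above 0. Whether the repeats bear on the difference in *Gapdh* was not tested.

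*Pgk1*, phosphoglycerate kinase, the enzyme of the first ATP-yielding step (chromosome X, 106187100 to 106203699), had values of 2, 2 and 1 in the controls and 1, 1 and 1 with Kcna1-dCas9A. *Pgam1*, phosphoglycerate mutase (chromosome 19, 41911871 to 41918665), had values of 4, 2 and 2 in the controls and 4, 3 and 8 with Kcna1-dCas9A. Both are at the floor of what rounded values can resolve, with overlapping groups, and no difference could be detected (log2 fold change -0.39 and 0.67, limma adjusted p = 0.458 and 0.338). With single libraries left out, *Pgk1* ranged from -0.58 (without the third Ctrl-dCas9A library) to -0.29, and *Pgam1* from 0.33 (without the third Kcna1-dCas9A library) to 0.92.

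*Pkm* encodes the muscle-type pyruvate kinase, which makes pyruvate and ATP (chromosome 9, 59656576 to 59679372). Its values were 119, 95 and 112 in Ctrl-dCas9A, against 137, 120 and 126 in Kcna1-dCas9A. The groups did not overlap, with the nearest libraries again 1 apart. Means were 109 ± 12.3 and 128 ± 8.62 (SD, n = 3), giving a log2 fold change of 0.23 (SE 0.12, 95% interval -0.04 to 0.51, limma adjusted p = 0.268), which was 0.14 without the second Ctrl-dCas9A library. *Ldha*, the lactate dehydrogenase subunit that favours lactate formation (chromosome 7, 46842274 to 46855627), had values of 135, 133 and 110 in the controls and 123, 126 and 130 with Kcna1-dCas9A, with a mean of 126 in each group. Its log2 fold change was 0.01 (SE 0.11, limma adjusted p = 0.996), and the 95% interval leaves room for a change from -0.24 to 0.26. Without the third Ctrl-dCas9A library it was -0.08.

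**Figure D3:**
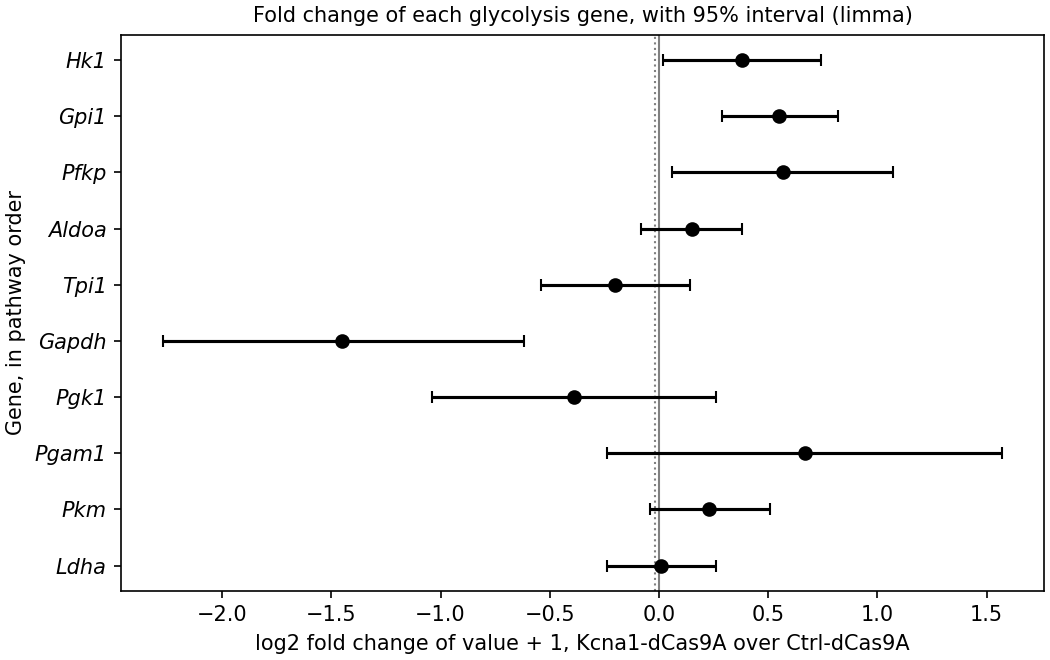
Log2 fold change of value + 1, Kcna1-dCas9A over Ctrl-dCas9A (horizontal axis), of the 10 genes in pathway order from top to bottom; points are limma estimates from 3 libraries per group and bars are 95% intervals. The solid line marks 0 and the dotted line the median of all genes tested (-0.02); the intervals of *Hk1*, *Gpi1* and *Pfkp* lie above 0 and that of *Gapdh* below it.

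Summed over the 10 genes, values were 676, 651 and 710 in Ctrl-dCas9A and 818, 781 and 817 in Kcna1-dCas9A. All Kcna1-dCas9A libraries were above all controls, at a mean of 805 ± 21.1 against 679 ± 29.6 (SD, n = 3), a ratio of 1.19. The 5 enzymes from *Hk1* to *Tpi1* summed to 399, 402 and 476 in Ctrl-dCas9A, against 546, 527 and 549 in Kcna1-dCas9A, a ratio of 1.27. The 5 from *Gapdh* to *Ldha* summed to 277, 249 and 234 in Ctrl-dCas9A, against 272, 254 and 268 in Kcna1-dCas9A, with overlapping groups and a ratio of 1.04. No test was made on these sums, whose members were chosen with results known, and *Hk1*, *Gpi1*, *Aldoa*, *Pkm* and *Ldha* make up most of them.

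Where several genes encode the enzyme of a step, the share of the listed member among them does not depend on how a library was scaled. *Ldha* made up 74.2, 72.7 and 78% of the lactate dehydrogenase values (*Ldha*, *Ldhb*, *Ldhc*) in Ctrl-dCas9A and 81.5, 79.2 and 83.3% in Kcna1-dCas9A. The shares did not overlap and differed by 6.39 percentage points (exact permutation, two-sided, p = 0.1, the smallest that 3 against 3 allows, 0.4 after adjustment over 6 shares). *Ldhb*, the subunit that favours pyruvate formation, had values of 47, 50 and 31 in the controls and 28, 33 and 26 with Kcna1-dCas9A, a difference that did not pass (log2 fold change -0.52, limma adjusted p = 0.181), while both *Ldha* means rounded to 126. *Ldhb* has 1 near-identical copy, with 9.82% of windows repeated exactly.

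**Figure D4:**
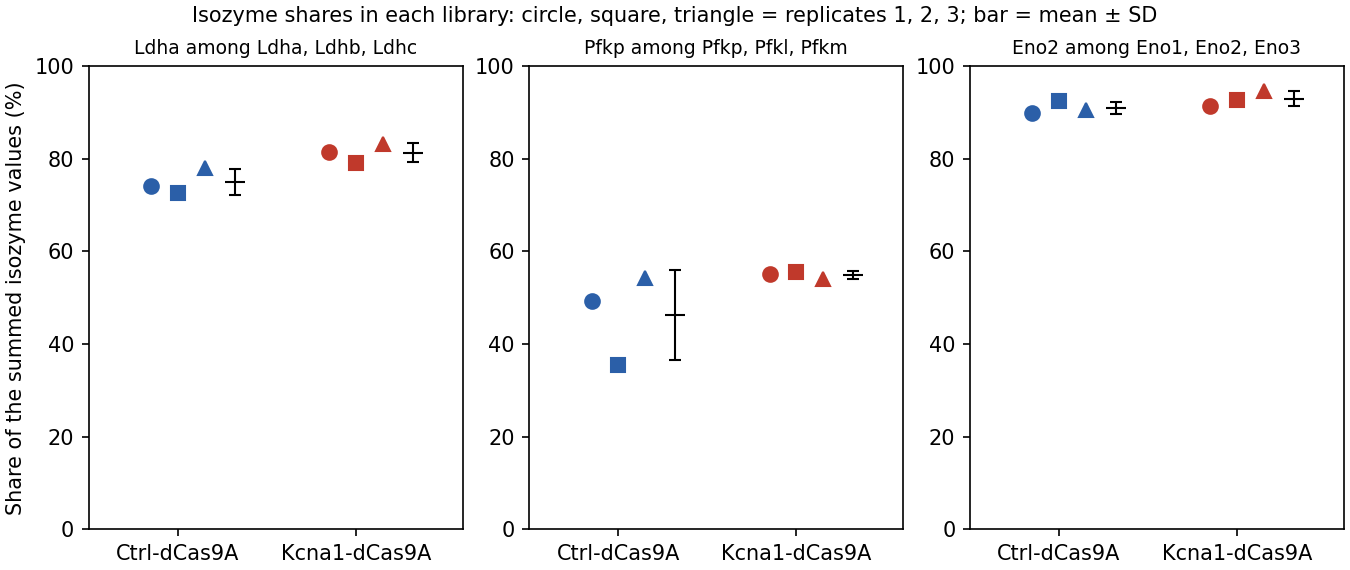
Share of the summed isozyme values (%, vertical axes from 0 to 100) held by *Ldha*, *Pfkp* and *Eno2* (among *Eno1*, *Eno2* and *Eno3*) in each library; circles, squares and triangles are replicates 1, 2 and 3 of Ctrl-dCas9A (blue) and Kcna1-dCas9A (red), and the bar is the mean with the SD (n = 3). The *Ldha* share is 72.7 to 78% in Ctrl-dCas9A and 79.2 to 83.3% in Kcna1-dCas9A, and the *Pfkp* and *Eno2* shares overlap.

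*Pfkp* held 49.2, 35.5 and 54.2% of the phosphofructokinase values in Ctrl-dCas9A and 55.1, 55.6 and 54% in Kcna1-dCas9A, with overlap (two-sided exact permutation p = 0.2). *Hk1* held from 93.5 to 98.3% of the values of *Hk1*, *Hk2* and *Hk3*, and *Pkm* held 100% of the pyruvate kinase values in all libraries, since *Pklr*, the liver and red cell gene, was at 0. Enolase, the step without a gene among the 10, was carried by the neuronal gene *Eno2*, with 90 to 92.5% of the summed values of *Eno1*, *Eno2* and *Eno3* in Ctrl-dCas9A and 91.5 to 94.7% in Kcna1-dCas9A (two-sided exact permutation p = 0.2). With *Eno1b*, which had values of 3, 2 and 1 in the controls and 2, 1 and 2 with Kcna1-dCas9A, added to the sum, the shares were 83.7 to 88.9% and 87.8 to 91.5% (two-sided exact permutation p = 0.3, chosen after seeing the data). These shares are uncertain because 74.8% of *Eno1* windows are repeated elsewhere. *Pgam1* held from 75 to 100%, on values too low to compare.

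Marker genes of cell types other than neurons were present, and their summed values differed between the groups. Marker calls are to be read beside the 0.81% of all genes called lower and the 0.349% called higher, and counts without overlap beside 13.3% lower and 8.98% higher. Summed astrocyte markers were at 875 to 1029 in Ctrl-dCas9A and at 636 to 668 in Kcna1-dCas9A. Of the 10, 9 had log2 fold changes below 0, 7 were lower without overlap and 2 were called lower, *Aqp4* (-1.42) and *Sox9* (-0.56). The glutamate transporter genes *Slc1a3* (-0.73) and *Slc1a2* (-0.29) did not pass. *Gfap* (-0.02) and *Aldh1l1* (-0.01) overlapped between groups, and *S100b* was above 0 (0.32). Summed microglial markers were at 23 to 28 in the controls and at 58 to 78 with Kcna1-dCas9A. Of 8 tested, 7 were above 0 in log2 fold change, 5 were higher without overlap and 1 was called higher (*C1qa*, 1.61). *Aif1* (1.07) and *Cx3cr1* (1.42) did not pass, and *P2ry12* was at 0. Summed oligodendrocyte lineage markers were at 66 to 98 in the controls and at 40 to 44 with Kcna1-dCas9A. Of 7 tested, 6 were below 0 in log2 fold change, 4 were lower without overlap and 1 was called lower (*Olig2*, -1.05). *Olig1* (-1.21) and *Pdgfra* (-1.12) did not pass, and *Mog* was at 0. *Mbp* went the other way, at 3, 3 and 2 in the controls and 7, 4 and 7 with Kcna1-dCas9A (0.91, limma adjusted p = 0.113). Summed markers of dividing cells were at 105 to 113 in the controls and at 61 to 68 with Kcna1-dCas9A, with *Top2a* (-0.44), *Pcna* (-0.90) and *Cdk1* (-1.37) the highest. Of these 8 markers, 7 were below 0 in log2 fold change, 6 were lower without overlap, and 0 passed the threshold. Vascular and fibroblast markers, with *Col1a1*, *Col1a2* and *Dcn* the highest, were at 9 to 13 in the controls and at 4 to 8 with Kcna1-dCas9A, and 0 of 8 passed.

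Summed pan-neuronal markers were at 6021 to 6873 in the controls and at 7026 to 8392 with Kcna1-dCas9A, and this direction rests on *Tubb3*, a neuronal tubulin. *Tubb3* had values of 1862, 1752 and 2605 in the controls and 3855, 3221 and 4591 with Kcna1-dCas9A (log2 fold change 0.92, limma adjusted p = 0.0556). Without it, a sum chosen after seeing the data, the other 7 were at 4159, 4306 and 4268 in the controls and at 4037, 3805 and 3801 with Kcna1-dCas9A, lower in every Kcna1-dCas9A library. *Map2* (-0.23, limma adjusted p = 0.167) and *Snap25* (-0.57, limma adjusted p = 0.0527) were lower without overlap and did not pass, and *Stmn2* overlapped (-0.08). Excitatory markers were at 1235 to 1382 in the controls and at 1174 to 1242 with Kcna1-dCas9A, with log2 fold changes of -0.07 for *Neurod2*, -0.40 for *Neurod6* and 0.62 for *Camk2a*. Inhibitory markers were at 255 to 286 and at 241 to 288 in that order, with 0.12 for *Sst*, 0.19 for *Dlx1* and -0.51 for *Slc32a1*. Over the 6 inhibitory markers the median log2 fold change was -0.27, with 4 below 0 and 3 lower without overlap (13.3% of all genes), *Gad1* (-0.60), *Dlx2* (-1.12) and *Slc32a1*. Of the pan-neuronal, excitatory and inhibitory markers 0 passed. Of the markers for brain region, *Zbtb20*, *Prox1* and *Ociad2* (hippocampus) and *Fezf2*, *Cux2* and *Tbr1* (neocortex) were all detected, *Spink8* was at 0, and 0 passed. All 5 tested hippocampal markers had log2 fold changes below 0, with *Prox1* lower without overlap (-0.62, limma adjusted p = 0.0947). Among 6 neocortical markers 4 were below 0 and 2 above, with *Fezf2* higher without overlap (0.42, limma adjusted p = 0.12). The part of these cell types in the values of *Aldoc*, *Ldhb* or the 10 genes was not tested.

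Beyond the 10 genes, 100 genes of neighbouring pathways were listed, with 93 above 0 in at least 1 library. Of these 0 were called higher and 2 lower, *Aldoc* and *Pdhb* (1.16% of all genes were called), and at an unadjusted p under 0.05 there were 7 higher (7.53%, against 9.59% of all genes) and 12 lower (12.9%, against 13.6%). Their median log2 fold change was -0.02, the same to that precision as over all genes. *Pdhb* encodes the beta subunit of the E1 enzyme of pyruvate dehydrogenase, which feeds pyruvate into the citric acid cycle. Its values were 73, 69 and 58 in Ctrl-dCas9A, against 32, 35 and 27 in Kcna1-dCas9A, and it fell by 1.07 on the log2 scale (SE 0.14, limma adjusted p = 0.0486, lost without any library other than the third Ctrl-dCas9A one). A near-identical copy covers 98.8% of its windows, with no exact match. *Pdha1*, the alpha subunit of the same enzyme, had values of 107, 87 and 98 in the controls and 106, 106 and 95 with Kcna1-dCas9A (log2 fold change 0.07, limma adjusted p = 0.664). *Mpc2*, a subunit of the carrier that takes pyruvate into mitochondria, had values of 85, 87 and 58 in the controls and 44, 47 and 54 with Kcna1-dCas9A, without overlap (-0.64, limma adjusted p = 0.0894). *Dld*, the E3 subunit, had a log2 fold change of 0.02 (limma adjusted p = 0.941). No other of the 14 tested genes of pyruvate entry passed.

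Of 19 other enzymes of the same steps, 5 were at 0 in all libraries and 1 of the 14 tested passed (*Aldoc*). *Aldoc*, the aldolase typical of astrocytes in brain, had values of 170, 168 and 160 in Ctrl-dCas9A, against 117, 112 and 112 in Kcna1-dCas9A. All 3 Kcna1-dCas9A libraries were below all controls, and it fell by 0.54 on the log2 scale (SE 0.08, limma adjusted p = 0.0496, just inside the threshold, and lost when any library other than the third Ctrl-dCas9A one was left out). *Pfkfb3*, which makes the activator of phosphofructokinase, and *Tigar*, which breaks it down, did not pass (log2 fold change -0.22 and -0.23), nor did *Pfkfb4* (-0.01) or any other of the 5 regulators of this kind. Among 10 transporters 0 passed, with a median log2 fold change of -0.26, 2 above 0 and 7 below. *Bsg*, the chaperone of the lactate transporters, had values of 185, 174 and 191 in the controls and 206, 216 and 205 with Kcna1-dCas9A (0.19, limma adjusted p = 0.224), and *Slc2a3*, the neuronal glucose transporter, had values of 38, 33 and 23 in the controls and 25, 28 and 24 with Kcna1-dCas9A (-0.25, limma adjusted p = 0.513). *Slc16a7*, a monocarboxylate transporter, had values of 27, 31 and 29 in the controls and 24, 25 and 23 with Kcna1-dCas9A, without overlap (-0.26, limma adjusted p = 0.251).

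In the pentose phosphate pathway, which branches from glucose 6-phosphate, 0 of 8 genes passed (median log2 fold change 0.05, 5 above 0 and 3 below). Of the 8, 2 were higher without overlap (8.98% of all genes). *Tkt*, transketolase, had values of 262, 271 and 320 in Ctrl-dCas9A, against 367, 338 and 475 in Kcna1-dCas9A, without overlap (log2 fold change 0.46, limma adjusted p = 0.123). *Pgls*, the lactonase, had values of 134, 168 and 179 in the controls and 240, 215 and 347 with Kcna1-dCas9A, also without overlap (0.71, limma adjusted p = 0.0866). *Taldo1*, transaldolase, overlapped between groups (-0.25, limma adjusted p = 0.268). Among 14 genes of glycogen metabolism 0 passed (median 0.06), with 8 above 0 and 6 below, and with 2 higher (8.98% of all genes) and 2 lower (13.3%) without overlap. *Gys1*, glycogen synthase, had values of 22, 30 and 40 in the controls and 54, 48 and 59 with Kcna1-dCas9A (0.82, limma adjusted p = 0.0769). *Pygb*, brain glycogen phosphorylase, had values of 116, 158 and 218 in the controls and 220, 218 and 275 with Kcna1-dCas9A, where the third control reached the level of the other group (0.57, limma adjusted p = 0.186). *Pgm2l1*, a phosphoglucomutase-like gene, had values of 123, 147 and 159 in the controls and 187, 176 and 194 with Kcna1-dCas9A, without overlap (0.38, limma adjusted p = 0.107). In the other direction, *Ugp2*, which makes UDP-glucose, had values of 28, 34 and 24 in the controls and 17, 15 and 16 with Kcna1-dCas9A (-0.79, limma adjusted p = 0.0556), and *Phkb*, a phosphorylase kinase subunit, was also lower without overlap (-0.81, limma adjusted p = 0.0774). Of the 9 genes of the NADH shuttles, 0 passed (5 above 0 and 4 below), with *Mdh2*, mitochondrial malate dehydrogenase, at values of 679, 784 and 776 in the controls and 837, 892 and 965 with Kcna1-dCas9A (0.27, limma adjusted p = 0.159). *Mdh1*, the cytosolic malate dehydrogenase, overlapped between groups (0.22, limma adjusted p = 0.277), as did *Gpd2*, the mitochondrial glycerol-3-phosphate dehydrogenase, with values of 160, 155 and 179 in the controls and 166, 152 and 175 with Kcna1-dCas9A.

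**Figure D5:**
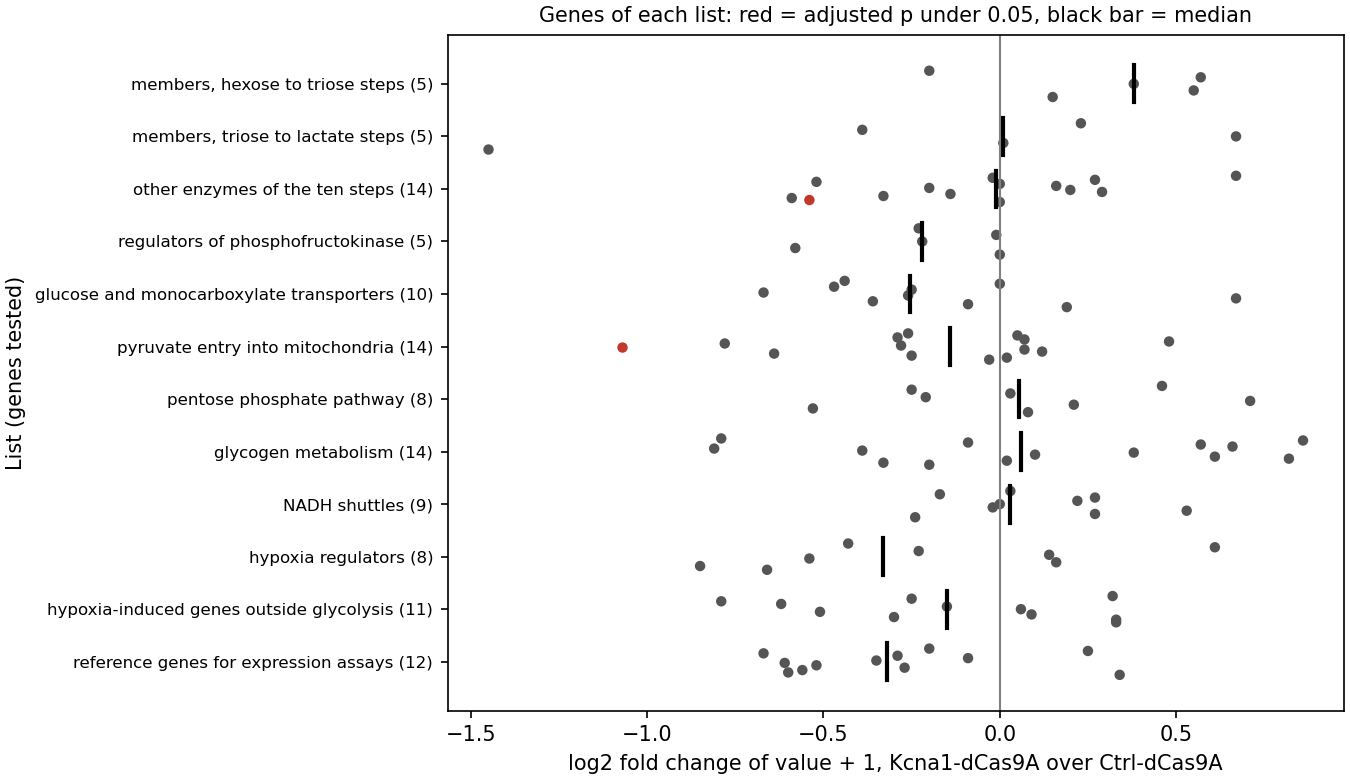
Log2 fold change of value + 1, Kcna1-dCas9A over Ctrl-dCas9A (horizontal axis), for every tested gene of each list (rows, number tested in brackets); points are genes, red points have an adjusted p under 0.05 and black bars are list medians. The red points are *Aldoc*, among the other enzymes of the same steps, and *Pdhb*, among the genes of pyruvate entry.

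Hypoxia-inducible factor is a textbook activator of many glycolysis genes, and its genes and targets were listed beside them. Of 8 regulators 0 passed, with a median log2 fold change of -0.33. *Hif1a*, its oxygen-regulated subunit, had values of 79, 66 and 59 in the controls and 57, 53 and 62 with Kcna1-dCas9A (-0.23, limma adjusted p = 0.341). *Egln2*, a prolyl hydroxylase that marks that subunit for degradation, had values of 113, 104 and 123 in the controls and 126, 122 and 131 with Kcna1-dCas9A (0.16, limma adjusted p = 0.376). *Hif1an*, an asparaginyl hydroxylase that inhibits it, had values of 41, 41 and 78 in the controls and 84, 58 and 97 with Kcna1-dCas9A (0.61, limma adjusted p = 0.268). The groups overlapped for these 3. Of the 8, 5 were below 0, and 2 were lower without overlap (13.3% of all genes), *Egln1*, another prolyl hydroxylase, with values of 61, 59 and 34 in the controls and 25, 32 and 25 with Kcna1-dCas9A (-0.85, limma adjusted p = 0.092), and *Arnt*, the partner subunit (-0.66, limma adjusted p = 0.135). Of 11 tested hypoxia-induced genes outside glycolysis 0 passed, with a median of -0.15, 5 above 0 and 6 below. Of these, 2 were lower without overlap (13.3% of all genes), *Ddit4* and *Ndrg1* (-0.62). *Ddit4*, an inhibitor of mTORC1 signalling, had values of 110, 132 and 107 in the controls and 85, 80 and 79 with Kcna1-dCas9A, without overlap (-0.51, limma adjusted p = 0.0556). *Bnip3l*, a mitophagy receptor, overlapped between groups (0.09, limma adjusted p = 0.637), as did *Higd1a* (-0.15, limma adjusted p = 0.513). The 12 reference genes had a median of -0.32, and 0 of them passed. *Ywhaz* had a log2 fold change of -0.20 (limma adjusted p = 0.319).

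RefSeq lists 15 promoters for the 10 genes (GRCm38.p6), among 32851 promoters in all. In the 250 bases before the start, searched on both strands, ACGTG, the core of the site of hypoxia-inducible factor on DNA, was present in 6 of the 15 (40%) and in 16.6% of all promoters. GCGTG, the other form of that core, was present in 5 (33.3%) and in 28.2% of all. GGGCGG was present in 8 (53.3%) and in 32.7% of all, and TATAAA in 0 and in 12.4%. The promoter with most copies of ACGTG was the first of *Ldha*, with 5. A relation between these motifs and the fold changes was not tested. A match is a description of the letters and not a measured site. The motifs can overlap each other, and promoters of the same gene can share bases.

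*Gapdh* and *Tpi1* lie on chromosome 6 with *Kcna1*, at 1470 and 1822 kb from it, and *Eno2* lies 1867 kb away. *Gapdh* and *Tpi1* had log2 fold changes below 0 and *Eno2* one above 0 (0.29, limma adjusted p = 0.293), none of them past the threshold.

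On log2(value + 1), the third Ctrl-dCas9A library was nearer to the Kcna1-dCas9A mean than to the mean of the other controls for *Hk1*, *Pfkp*, *Tpi1* and *Ldha*, 4 of the 7 members with a mean of at least 10 (57.1%). Over all 8050 genes at that level the share was 56%. Without that library 3 of the 10 genes passed, *Hk1*, *Gpi1* and *Gapdh*, beside 14.2% of all genes.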

How the data were processed

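RNA of primary mouse neurons carrying Kcna1-dCas9A or Ctrl-dCas9A (3 libraries each, grouped by the labels) was made into QuantSeq 3' libraries and sequenced by the authors with 75-base stranded reads. The paper names Bowtie2 and NCBI37/mm9, whereas the submitters' processing notes name STAR 2.7, featureCounts, DESeq2 and mm10. Which of them made the files is not given in the sources used here. The deposited score is a whole number per gene, taken to be a per-million value rounded by the authors, since the totals were nearly equal and the variance between replicates was 0.698 and 0.499 times the mean at means from 4 to 8, less than counts give. Depth is unknown, and no counting intervals or count models were used.

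Values were tested as log2(value + 1) with limma 3.58.1 in R 4.3.3 (lmFit, eBayes with an intensity trend), with group as the only factor, on 19504 genes above 0 in at least 1 library. Fold changes on this scale understate those of low genes. Adjusted p-values are Benjamini-Hochberg over all genes tested, with a threshold of 0.05. The script was tested on simulated data. Copies of transcript ends were searched with BLAST 2.17.0 (at least 95% identity) in NCBIM37 with GENCODE vM1. Gene positions and promoters are from RefSeq, GRCm38.p6, in which 34696 of 50508 symbols were found.

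The 10 genes and all lists were chosen with earlier results of these data known. Genes named were the 10, *Kcna1*, and from each list the genes past the threshold and those among the 3 with the highest mean. Names outside this rule are *Ppia*, *Eno1*, *Eno1b*, *Pklr*, *Gapdhs*, *Pgk2*, *Snap25*, *Mbp*, *Gad1*, *Dlx2*, *Gfap*, *Aldh1l1*, *S100b*, *Tfrc*, *Hprt*, *B2m*, *Ugp2*, *Phkb*, *Egln1*, *Arnt*, *Ndrg1* and Gm42418, and the genes of the isozyme shares and the markers at 0, chosen after their values were seen. Alternatives were other pseudocounts, filters, scalings and variance models, the replicate block and each library left out, with an enolase share and a marker sum added after seeing the data. The isozyme share of 1 step and the values of 1 gene are not reported here.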

Additional observations from a re-analysis of the deposited data

How the results depend on the processing

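Over 16 alternatives, the log2 fold change kept its direction for 9 of the 10 genes in every setting in which they were tested. *Ldha* turned to -0.01 without Gm42418 (a gene that held from 15.3 to 20.2% of each library's values), -0.08 without the third Ctrl-dCas9A library and -0.01 without the third Kcna1-dCas9A library, within -0.08 to 0.06 over the left-out libraries. *Gpi1* ranged from 0.50 to 0.67 and *Gapdh* from -1.73 to -0.99. Of the 10 genes, 0 passed as reported. The number was 2 with a mean value of at least 1 (*Gpi1*, *Gapdh*, beside 11.3% of all genes). With a mean of at least 10 it was 2 of the 7 tested (*Gpi1*, *Pfkp*, beside 28.4% of all genes). After median-of-ratios rescaling (8.81% of all genes) and without Gm42418 (1808 of 19503 genes) it was 2 each (*Gpi1*, *Gapdh*). After upper-quartile rescaling (2058 of 19504 genes) and with robust variance (14.8%) it was 3 each (*Gpi1*, *Pfkp*, *Gapdh*). When a library was left out it ranged from 0 to 3, with 3 (*Hk1*, *Gpi1*, *Gapdh*) only without the third Ctrl-dCas9A library (14.2% of all genes). In the same order of settings the pathway genes that passed (2 in the report) were 6, 14, 7, 8, 9 and 18, and 0 without an intensity trend. They ranged from 0 to 10 when a library was left out. Over all genes the 226 calls became 627 with a pseudocount of 0.1, 475 with 5, 1543 with a mean of at least 1, 2289 with at least 10, 1719 after median-of-ratios rescaling, 2058 after upper-quartile rescaling (1226 higher, 832 lower), 1808 without Gm42418 and 2884 with robust variance. They ranged from 0 to 2711 when a library was left out. Without an intensity trend 201 genes passed, 117 higher and 84 lower. *Aldoc* and *Pdhb* each passed in 9 of 16 settings. The difference in the summed value of the 10 genes, 126 as reported, was 171 after median-of-ratios and 187 after upper-quartile rescaling. When a library was left out, the difference in share ranged from -0.753 (without the first Ctrl-dCas9A library) to 1.61 points for *Hk1* (0.721 as reported), from 3.18 (without the second) to 12.5 for *Pfkp* (8.58), from 1.09 (without the third Kcna1-dCas9A library) to 2.71 for *Eno2* (1.96, and 3.22 with *Eno1b*), from 5.25 to 7.92 for *Ldha* (6.39) and from -22.5 to -10 for *Pgam1* (-15), and it was 0 for *Pkm*. The causes were not tested.

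Replicate numbers in the labels were not shown to pair the samples. Deviations of same-numbered libraries correlated at 0.014, 0.114 and 0.154 over genes, and every library except the first Ctrl-dCas9A library correlated best with its own number. With the replicate block 0 of all genes, 0 of the 10 genes and 0 pathway genes passed (*Gpi1* adjusted p = 0.11, *Gapdh* 0.11), with 4326 genes at an unadjusted p under 0.05. The smallest exact permutation p for a share with the block is 0.25. Read depth, and so the precision of genes of very low value such as *Pgk1* and *Pgam1*, is unknown.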
